A study of Homo sapiens with 18 samples.

Results

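The nuclear genes for subunits of the mitochondrial respiratory chain and ATP synthase were followed across 3 comparisons labelled as gene knockdowns in a renal carcinoma line. Members were taken by symbol: NDUFA, NDUFB, NDUFC, NDUFS and NDUFV genes for complex I, SDHA to SDHD for complex II, UQCR genes for complex III, COX4 to COX8 genes for complex IV and ATP5 genes for complex V. Of 242 symbols that matched in the RBCK1 and ANKRD35 tables, 152 were not annotated as protein coding, and the other 90 were the members, out of 58735 genes (39 of complex I, 4 of complex II, 9 of complex III, 17 of complex IV and 21 of complex V). A gene was tested where it reached 1 FPKM (fragments per kilobase of transcript, scaled to library size) in at least 3 of the 6 libraries of a table, which left 78 members of 12227 genes in the RBCK1 table and 77 of 11890 in the ANKRD35 table. For MITD1, symbols were counted as protein coding only where the RBCK1 table lists them so. There 119 symbols matched, and 50 of these were not counted as protein coding. The other 69 were the members there, out of 29928 genes, and 56 of them were among the 10415 genes tested. These 69 included 0 genes of complex V, so complex V was not analysed there. A row name that the RBCK1 table does not list could not be counted as a member. The symbol rule also takes in genes that are not subunits in the strict sense: the inhibitor ATP5IF1, the supercomplex factor COX7A2L, the readthrough genes NDUFC2-KCTD14 and ATP5MF-PTCD1, and NDUFA4, which is filed by its symbol under complex I although its protein is now assigned to complex IV.

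The study measured RNA from 786-O, an established clear cell renal carcinoma line that lacks functional VHL, grown in RPMI-1640 medium with serum. The 18 libraries form 6 groups of 3: shRBCK1 with shcontrol (short hairpin RNA against the ubiquitin ligase gene RBCK1), siANKRD35 with sicontrol_for_siANKRD35 (small interfering RNA against ANKRD35 by the sample labels, although the headers of the same libraries' value columns read ShRNA) and siMITD1 with sicontrol_for_siMITD1 (small interfering RNA against MITD1). By its title the series concerns a pathway from RBCK1 through ANKRD35 and MITD1 in sunitinib sensitivity. The knockdown sequences, the number of constructs per gene and the time after knockdown are not given in the sources used here. Nothing there says that the libraries of a group came from separate cultures, so p-values here reflect library-to-library spread alone, and that spread could be technical.

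Complexes I to IV pass electrons from NADH and succinate to oxygen, complexes I, III and IV pump protons across the inner mitochondrial membrane, and complex V uses the gradient to make ATP. Most subunits are encoded in the nucleus and imported, while a small core is encoded in mitochondrial DNA, so the holoenzymes draw on transcripts of both genomes. Succinate dehydrogenase, complex II, is wholly nuclear-encoded and also belongs to the tricarboxylic acid cycle. Clear cell renal carcinoma is known for low respiratory chain content and high glycolysis, and the transcription factors NRF1, GABPA (an ETS factor) and YY1 are textbook regulators of nuclear respiratory genes.

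The promoters of the members were read for the cores of those factors' motifs. RefSeq promoter windows (GRCh38.p14, 250 bases before to 50 bases after each gene's start) matched 72 of the 90 members by symbol. The NRF1 core GCGCATGC or its reverse complement GCATGCGC was found in 13 of 72 member windows (18.1%), against 4.26% of 15843 windows of protein-coding genes. The ETS core CCGGAAG or CTTCCGG was found in 20 of 72 (27.8%, against 14.2%), and the YY1 core AAGATGGCG or CGCCATCTT in 8 of 72 (11.1%, against 2.74%). At least 1 of the 3 cores was present in 31 of 72 member windows (43.1%), against 19.5% of all windows. Both strands were searched, and matches of the NRF1 core on opposite strands can overlap each other. A match describes letters in a window and is neither a binding site nor a cause of a change. For each complex, 1 promoter with the most matches in the 120 bases before the start is printed here, 5′ to 3′ on the gene's strand, with the matched letters in capitals. They are NDUFS3 of complex I (chr11:47578954-47579073, plus strand), SDHD of complex II (chr11:112086753-112086872, plus strand), UQCR11 of complex III (chr19:1605463-1605582, minus strand), COX5B of complex IV (chr2:97645942-97646061, plus strand) and ATP5PF of complex V (chr21:25735055-25735174, minus strand).
NDUFS3: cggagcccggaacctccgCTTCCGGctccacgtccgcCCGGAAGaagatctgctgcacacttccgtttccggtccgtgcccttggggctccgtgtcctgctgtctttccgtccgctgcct
SDHD: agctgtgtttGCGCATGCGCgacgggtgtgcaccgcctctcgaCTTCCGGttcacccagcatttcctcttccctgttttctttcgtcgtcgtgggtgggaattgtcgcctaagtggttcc
UQCR11: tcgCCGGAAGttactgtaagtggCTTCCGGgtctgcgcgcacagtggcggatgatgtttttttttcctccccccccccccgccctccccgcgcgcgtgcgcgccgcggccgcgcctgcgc
COX5B: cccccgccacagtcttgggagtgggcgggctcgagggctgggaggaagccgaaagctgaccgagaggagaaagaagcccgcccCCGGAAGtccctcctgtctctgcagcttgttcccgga
ATP5PF: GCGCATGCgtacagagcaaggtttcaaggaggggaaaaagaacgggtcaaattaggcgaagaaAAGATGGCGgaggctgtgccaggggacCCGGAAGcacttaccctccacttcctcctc
The stretch of ATP5PF holds all 3 cores, and that of SDHD holds overlapping NRF1 matches on both strands beside an ETS core. NDUFS3 and UQCR11 each carry 2 ETS cores, 1 on each strand, and COX5B carries 1.

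Reads per library, recovered from the FPKM values and the listed gene lengths, summed to 16346478 to 18648246 in the RBCK1 table and to 17502646 to 19034974 in the ANKRD35 table. In the MITD1 table the genes whose reads came out whole in all 6 libraries summed to 12703947 to 13888443. The smallest read count of a tested member was 28 in the RBCK1 table and 50 in the ANKRD35 table, both for NDUFA13. Each targeted gene was lower in the libraries labelled as its knockdown, but control levels differed between the tables. RBCK1 had 30.8, 32.0 and 32.9 FPKM in shRBCK1 libraries, against 487, 492 and 462 FPKM in shcontrol libraries. ANKRD35 was listed at 0, 0 and 0.0332 FPKM in siANKRD35 libraries, against 753, 687 and 742 FPKM in sicontrol_for_siANKRD35 libraries, while its mean was 0.00586 FPKM in shRBCK1, 0 in shcontrol, 0.0195 in siMITD1 and 0.00640 in sicontrol_for_siMITD1 libraries. The siANKRD35 libraries were thus at the level of the other 786-O groups, and sicontrol_for_siANKRD35 was the group that stood apart. For RBCK1 the shcontrol mean was 480.3 FPKM, against 70.8 FPKM in sicontrol_for_siANKRD35 and 65.5 FPKM in sicontrol_for_siMITD1 libraries. These levels come from separately processed tables; what set the control levels was not tested, and directions below hold between the groups as labelled. MITD1 had 2.43, 2.66 and 3.03 FPKM in siMITD1 libraries, against 7.16, 7.42 and 7.83 FPKM in sicontrol_for_siMITD1 libraries. All 9 markers of renal carcinoma lines, PAX8 and VIM among them, passed the filter in each table. The summed FPKM of 6 fibroblast markers was at most 4.69 in any library, that of 6 endothelial markers at most 51.6, carried by EGFL7, and that of 6 blood cell markers at most 26.4, carried by CD74. Only 5 of the 6 endothelial markers were listed in the MITD1 table.

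Mean levels of the tested members spanned 0.907 to 278 FPKM in the RBCK1 table. FPKM is a level per length, and the listed lengths are the union of all annotated exons of a gene. NDUFS5, an accessory subunit of complex I, and ATP5F1B, the catalytic beta subunit of ATP synthase, led the RBCK1 table at means of 278 and 273 FPKM over 6 libraries, followed by NDUFB7 at 128, COX8A at 128 and UQCRH at 115 FPKM. In the ANKRD35 table ATP5F1B averaged 611 FPKM, NDUFS5 averaged 230 FPKM, and ATP5MD, NDUFB7 and COX8A lay between 106 and 112 FPKM. In the MITD1 table NDUFS5 averaged 415 FPKM, NDUFB7 averaged 176 FPKM, and COX8A, UQCRQ and UQCRH lay between 104 and 129 FPKM. Neighbours in these orders were often closer than their libraries: NDUFB7 ranged over 114 to 142 FPKM in shRBCK1 libraries and COX8A over 114 to 128 FPKM there. The lowest tested members were NDUFA9, ATP5S and NDUFA13 in the RBCK1 table (0.907 to 2.09 FPKM), NDUFA9, NDUFS7 and NDUFA13 in the ANKRD35 table (1.53 to 2.23 FPKM) and UQCRHL, NDUFA11 and NDUFA9 in the MITD1 table (1.49 to 2.36 FPKM).

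Most tissue-specific and alternative isoforms were listed at 0 or under 1 FPKM. COX6A2 and COX7B2 were listed at 0 in all 18 libraries. COX4I2, the lung and hypoxia isoform of COX4, was listed at 0 in the ANKRD35 and MITD1 tables and reached at most 0.0846 FPKM in the RBCK1 table, where COX4I1 had 44.1 to 53.1 FPKM. COX6B2 stayed at or below 0.186 FPKM, COX7A1 at or below 0.646 FPKM and COX8C at or below 0.523 FPKM. NDUFA4L2, the hypoxia-inducible paralogue of NDUFA4, had 0.112, 0 and 0.0791 FPKM in shRBCK1 libraries, against 0.209, 0.222 and 0.211 FPKM in shcontrol libraries. It had 1.30, 0.616 and 0.954 FPKM in siANKRD35 libraries, against 0.852, 0.638 and 0.712 FPKM in sicontrol_for_siANKRD35 libraries, and its groups overlapped there. NDUFA4L2 was thus detected in all 6 libraries of that table, where NDUFA4 had 42.3 to 78.5 FPKM. In all, 12 members were tested in no comparison. Besides the isoforms these were the readthrough genes, ATP5MGL, and NDUFV2 and NDUFA7, a core and an accessory subunit of complex I whose highest library had 0.795 FPKM (NDUFA7, shcontrol replicate 3). Part of their annotated exons is shared with other genes on the same strand (28.4% of bases for NDUFV2 and 32.3% for NDUFA7), while 48 of the 90 members share under 5% of their exon bases with a gene on either strand. NDUFB8 (33.8%) and COX8A (34.5%) shared a like part and passed the filter, at means of 5.51 and 128 FPKM in the RBCK1 table. Other tested members shared exon bases with genes on the opposite strand, such as NDUFA1 (44.5%), ATP5PF (23.1%) and UQCRQ (20.8%). How reads in shared exons were assigned is not given in the sources used here, and whether sharing set any level or change was not tested. In the MITD1 table NDUFA6 was listed at 0 in all 6 libraries and SDHA had 2.40 to 2.74 FPKM, against 22.4 to 40.3 FPKM for SDHA in the ANKRD35 table. The tables were processed separately, and tests were made only within a table. What set the differences in level between tables was not tested.

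**Figure D1:**
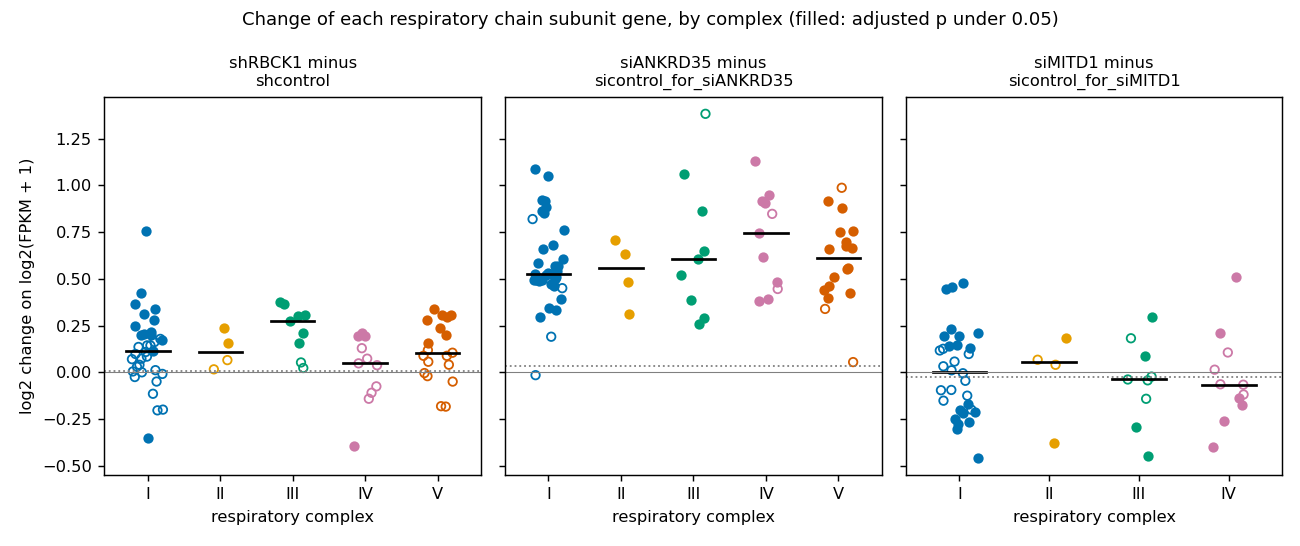
Change of each tested member (y axis, log2 difference of log2(FPKM + 1), knockdown minus control) by complex (x axis) for shRBCK1, siANKRD35 and siMITD1, each against its own control. Each point is a gene, filled where the adjusted p was under 0.05, black bars are medians per complex, and the dotted line is the median of all genes tested: the siANKRD35 points lie almost all above 0, the shRBCK1 points mostly slightly above it, and the siMITD1 points on both sides.

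Nuclear respiratory transcripts of every complex were higher in siANKRD35 libraries than in their controls, the group in which ANKRD35 itself stood apart from every other 786-O group. In siANKRD35 libraries 67 of 77 tested members were higher than in sicontrol_for_siANKRD35 libraries and 0 were lower (limma, adjusted p under 0.05 over all genes tested), while 36.3% of all genes tested were called, 19.4% higher and 16.9% lower. At an unadjusted p under 0.05, limma gave 73 members higher and 0 lower, against 25.7% of all genes higher and 21.7% lower. After adjustment, voom on recovered reads gave 64 members higher and 0 lower, with 1747 higher and 2724 lower among 11890 genes. The median change of the members was 0.56 on the log2(FPKM + 1) scale, against 0.03 for all genes tested, and 76 of 77 changes were positive. Fold changes on this scale understate the change of genes with low FPKM. The libraries did not overlap in 72 of 77 members, all with siANKRD35 higher, while 52.2% of all genes did not overlap in either direction and 28.1% with siANKRD35 higher; 3 against 3 libraries cannot give an exact permutation p below 0.1. Members took 1.01%, 0.936% and 0.950% of recovered reads in siANKRD35 libraries, against 0.701%, 0.692% and 0.706% in sicontrol_for_siANKRD35 libraries. In bulk RNA, a shift in the mix of cells and a change of RNA per cell cannot be told apart. Of the renal carcinoma line markers, 2 of 9 were called higher and 5 lower, with a summed level of 1391 to 1698 FPKM in siANKRD35 libraries and 1182 to 1219 FPKM in sicontrol_for_siANKRD35 libraries. The summed level of endothelial markers was 27.4 to 51.6 FPKM in siANKRD35 libraries and 20.3 to 27.3 FPKM in sicontrol_for_siANKRD35 libraries, with 1 of 6 markers at 0 in all 6 libraries. The part of either in the result was not tested.

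In complex I, 31 of 35 tested members rose in siANKRD35 libraries, with a median change of 0.53. NDUFA1, a small membrane arm subunit needed for assembly, rose most among called members of complex I. NDUFA1 shares 44.5% of its exon bases with RNF113A on the opposite strand. It had 41.4, 24.4 and 32.8 FPKM in siANKRD35 libraries, against 15.7, 13.9 and 14.2 FPKM in sicontrol_for_siANKRD35 libraries. The groups did not overlap, with siANKRD35 replicate 2 the lowest of its group, and NDUFA1 rose by 1.09 ± 0.18 on the log2 scale (SE, limma adjusted p = 0.00467). NDUFA4 had 59.98, 78.5 and 61.6 FPKM in siANKRD35 libraries, against 42.3, 44.5 and 44.8 FPKM in sicontrol_for_siANKRD35 libraries, and rose by 0.58 (adjusted p = 0.00816). NDUFS1 and NDUFV1, core subunits of the NADH-oxidizing module, were not called, and the core subunit NDUFV2 was not tested. NDUFS1, which carries iron-sulfur clusters, had 11.2, 12.9 and 11.1 FPKM in siANKRD35 libraries, against 10.2, 10.01 and 10.3 FPKM in sicontrol_for_siANKRD35 libraries (log2 change 0.19, limma adjusted p = 0.102). NDUFV1, which binds NADH and flavin, had 23.3, 14.8 and 18.4 FPKM in siANKRD35 libraries, against 13.6, 12.4 and 14.02 FPKM in sicontrol_for_siANKRD35 libraries (log2 change 0.45, limma adjusted p = 0.057). Neither gene's groups overlapped, so all 3 siANKRD35 libraries lay above the controls without passing the test. NDUFB7, among the most abundant members, had 191, 84.1 and 155 FPKM in siANKRD35 libraries, against 80.3, 73.1 and 75.6 FPKM in sicontrol_for_siANKRD35 libraries, with the siANKRD35 libraries spread widely, and NDUFA13 was the 1 member with a negative change, at -0.01.

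All 4 genes of complex II rose in siANKRD35 libraries. SDHA encodes the flavin subunit that oxidizes succinate, SDHB the iron-sulfur subunit, and SDHC and SDHD the membrane anchors that bind ubiquinone. SDHB (chr1:17018722-17054170, minus strand, GRCh38) had 60.8, 61.1 and 62.1 FPKM in siANKRD35 libraries, against 37.8, 35.5 and 38.2 FPKM in sicontrol_for_siANKRD35 libraries. Its groups were tight and far apart, with a log2 change of 0.71 ± 0.07 (SE, limma adjusted p = 0.00101). SDHA (chr5:218241-256700, plus strand) had 40.3, 32.01 and 36.8 FPKM in siANKRD35 libraries, against 23.6, 22.4 and 22.9 FPKM in sicontrol_for_siANKRD35 libraries, a log2 change of 0.64 ± 0.09 (limma adjusted p = 0.00359). SDHC had 10.7, 11.1 and 9.44 FPKM in siANKRD35 libraries, against 7.83, 8.32 and 8.45 FPKM in sicontrol_for_siANKRD35 libraries, the smallest log2 change of complex II at 0.31 (adjusted p = 0.0269). SDHD had 23.5, 25.2 and 22.5 FPKM in siANKRD35 libraries, against 15.6, 16.8 and 17.6 FPKM in sicontrol_for_siANKRD35 libraries, with a log2 change of 0.49 (adjusted p = 0.00508). None of the 4 genes had overlapping groups. Pseudogenes named for SDHA summed to 6.53 FPKM in shcontrol libraries, a sum not taken in the ANKRD35 table. How reads were split between SDHA and its copies is uncertain.

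**Figure D2:**
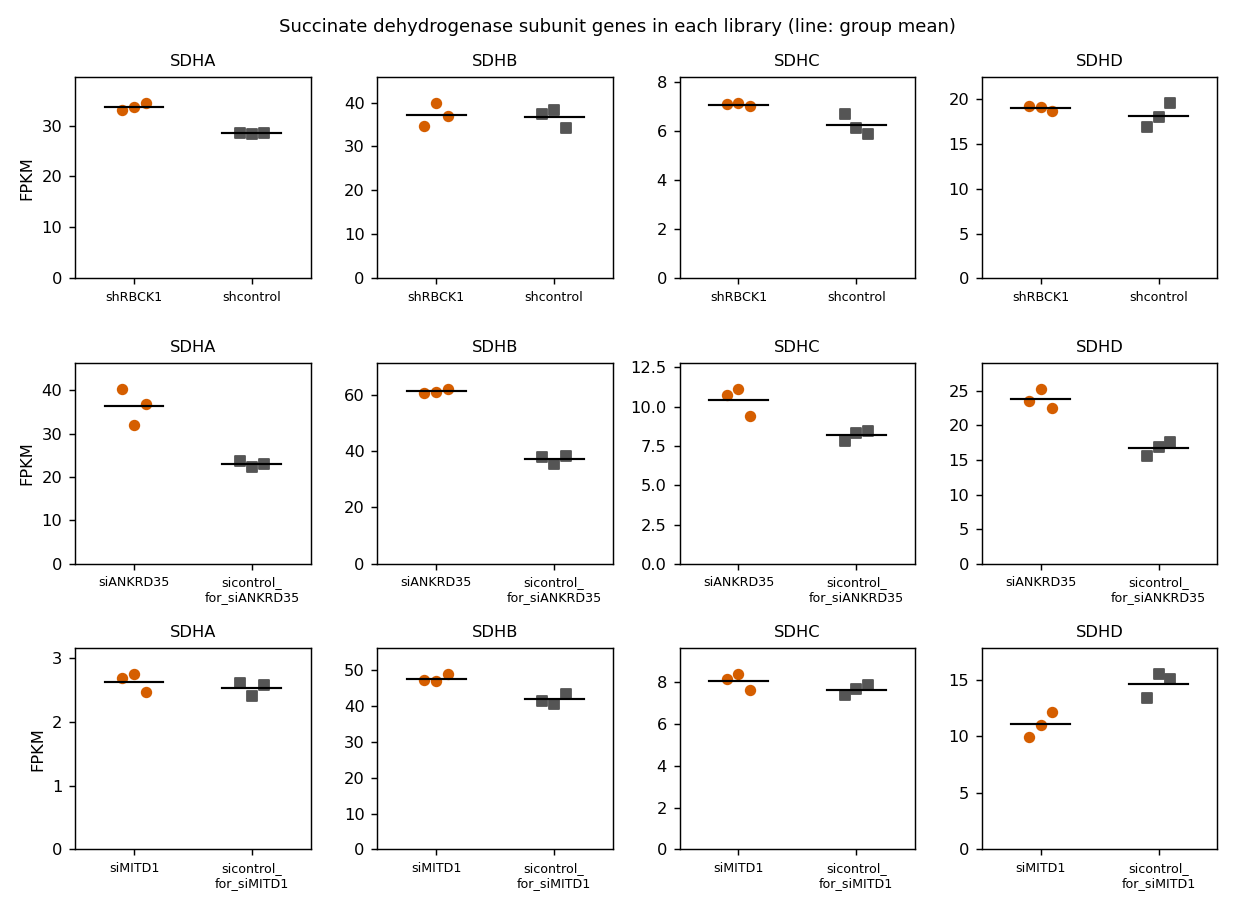
FPKM (y axis, from 0) of the 4 succinate dehydrogenase genes in each library, with shRBCK1, siANKRD35 and siMITD1 as circles left of their control libraries as squares; lines are group means of 3 libraries. All 4 genes are separated in the siANKRD35 table, SDHA and SDHC in the shRBCK1 table, and SDHB (higher) and SDHD (lower) in the siMITD1 table.

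In complex III, 8 of 9 tested members rose in siANKRD35 libraries, with a median change of 0.61. UQCR10, a small accessory subunit, had 58.1, 38.5 and 48.5 FPKM in siANKRD35 libraries, against 22.7, 22.2 and 22.1 FPKM in sicontrol_for_siANKRD35 libraries, and rose by 1.06 ± 0.14 (SE, limma adjusted p = 0.00255). Its groups lay far apart, and siANKRD35 replicate 2 was again the lowest of its group. UQCRFS1, the Rieske iron-sulfur protein, had 36.7, 40.2 and 36.03 FPKM in siANKRD35 libraries, against 27.8, 27.4 and 30.4 FPKM in sicontrol_for_siANKRD35 libraries (log2 change 0.39, adjusted p = 0.00981). UQCRC1, a core protein, had 72.2, 68.8 and 72.7 FPKM in siANKRD35 libraries, against 58.6, 57.3 and 62.4 FPKM in sicontrol_for_siANKRD35 libraries (log2 change 0.26, adjusted p = 0.0253). Both were separated from the controls, by smaller differences than UQCR10. The member not called was UQCRHL, an intronless copy of the hinge protein gene UQCRH, with 21.2, 9.95 and 5.22 FPKM in siANKRD35 libraries, against 1.505, 5.05 and 4.64 FPKM in sicontrol_for_siANKRD35 libraries; how reads were split between UQCRHL and UQCRH is uncertain.

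In complex IV, 9 of 11 tested members rose in siANKRD35 libraries, with a median change of 0.75. COX6A1, a supernumerary subunit, had 73.7, 31.2 and 49.5 FPKM in siANKRD35 libraries, against 25.1, 21.6 and 18.6 FPKM in sicontrol_for_siANKRD35 libraries. The groups did not overlap, but siANKRD35 libraries differed more than 2-fold among themselves, and COX6A1 rose by 1.13 ± 0.29 (SE, limma adjusted p = 0.0213). COX5A, a subunit on the matrix side of the enzyme, had 83.9, 65.95 and 78.2 FPKM in siANKRD35 libraries, against 42.1, 38.9 and 37.7 FPKM in sicontrol_for_siANKRD35 libraries, and rose by 0.92 ± 0.10 (adjusted p = 0.0017). COX4I1 had 102, 84.9 and 101 FPKM in siANKRD35 libraries, against 70.4, 66.7 and 67.2 FPKM in sicontrol_for_siANKRD35 libraries, and rose by 0.48 (adjusted p = 0.00724). COX6B1 and COX7A2 were not called. COX6B1 had 138, 67.8 and 134 FPKM in siANKRD35 libraries, against 68.7, 62.3 and 49.3 FPKM in sicontrol_for_siANKRD35 libraries (adjusted p = 0.0509), and siANKRD35 replicate 2 lay within the control range. COX7A2 had 88.3, 51.1 and 82.98 FPKM in siANKRD35 libraries, against 55.7, 49.7 and 52.7 FPKM in sicontrol_for_siANKRD35 libraries (adjusted p = 0.119), with the same overlap at replicate 2.

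In complex V, 15 of 18 tested members rose in siANKRD35 libraries, with a median change of 0.61. ATP5MC1, ATP5MC2 and ATP5MC3 encode the same mature c subunit of the proton-driven ring. ATP5MC3 had 43.6, 31.6 and 36.3 FPKM in siANKRD35 libraries, against 19.5, 19.2 and 18.4 FPKM in sicontrol_for_siANKRD35 libraries, with a log2 change of 0.92 ± 0.12 (SE, limma adjusted p = 0.00227). ATP5MC1 had 44.9, 41.5 and 39.9 FPKM in siANKRD35 libraries, against 25.4, 26.6 and 26.6 FPKM in sicontrol_for_siANKRD35 libraries (log2 change 0.66, adjusted p = 0.00163), and ATP5MC2, the most abundant of the ring genes, changed by 0.43 (adjusted p = 0.0235). All 3 ring genes were higher, with no overlap between groups. The catalytic subunits ATP5F1A and ATP5F1B rose by 0.46 (adjusted p = 0.00801) and 0.40 (adjusted p = 0.00423). ATP5F1B had 692, 715 and 677 FPKM in siANKRD35 libraries, against 520.0, 525 and 537 FPKM in sicontrol_for_siANKRD35 libraries. ATP5IF1, which blocks ATP hydrolysis by the enzyme, had 20.7, 11.2 and 13.7 FPKM in siANKRD35 libraries, against 8.62, 8.78 and 9.38 FPKM in sicontrol_for_siANKRD35 libraries, and rose by 0.67 (adjusted p = 0.0368). ATP5MD, ATP5MF and ATP5PO were not called, and ATP5MD had 141, 171 and 49.9 FPKM in siANKRD35 libraries, against 99.6, 102 and 106 FPKM in sicontrol_for_siANKRD35 libraries, with siANKRD35 replicate 3 below every control library.

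Changes in the ANKRD35 table ran with gene length, so each member was set beside genes of like length. Over 11890 tested genes the Spearman correlation of the change with the listed length was -0.41, and over the 77 members it was -0.52; these are descriptions over genes that share the same 6 libraries. Members were short, with a median listed length of 2475 bases, against 4567 bases over all tested genes. Among other genes within 20% of a member's length, the median change was 0.20 (the median over 77 members, from -0.26 to 0.37) and 28.6% were called higher (from 3.07% to 44.1%). Of 77 members 75 lay above the median of their like-length genes, by 0.43 at the median. SDHC, with the longest listed length at 14160 bases, changed by 0.31 where its like-length genes had a median of -0.26. After correcting each library for length, 47 of 77 members were called higher and 0 lower, with a median of 0.44; with length and GC content both corrected, 56 were higher, with a median of 0.47. Length correction ended 21 calls. Among them were those of SDHD (log2 change 0.29, adjusted p = 0.0501), UQCRC1 (0.10, adjusted p = 0.289), UQCRFS1 (0.25, adjusted p = 0.0554), ATP5F1B (0.15, adjusted p = 0.174), ATP5IF1 (0.41, adjusted p = 0.118) and ATP5MC2 (0.34, adjusted p = 0.0589). With length and GC content both corrected, 14 calls ended. These included COX6A1 (0.80, adjusted p = 0.0577), UQCRC1 (adjusted p = 0.194), ATP5F1B (0.0829) and ATP5IF1 (0.114). Voom on recovered reads ended 4 calls, among them that of UQCRC1 (0.17, adjusted p = 0.0968). Quantile normalization left 51 members higher and ended 16 calls. Among them were those of NDUFA4 (0.35, adjusted p = 0.0868), ATP5F1A (0.26, adjusted p = 0.0808), ATP5F1B (0.12, adjusted p = 0.322), ATP5MC2 (0.18, adjusted p = 0.174), UQCRC1 (0.01, adjusted p = 0.89) and UQCRFS1 (0.20, adjusted p = 0.108).

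**Figure D3:**
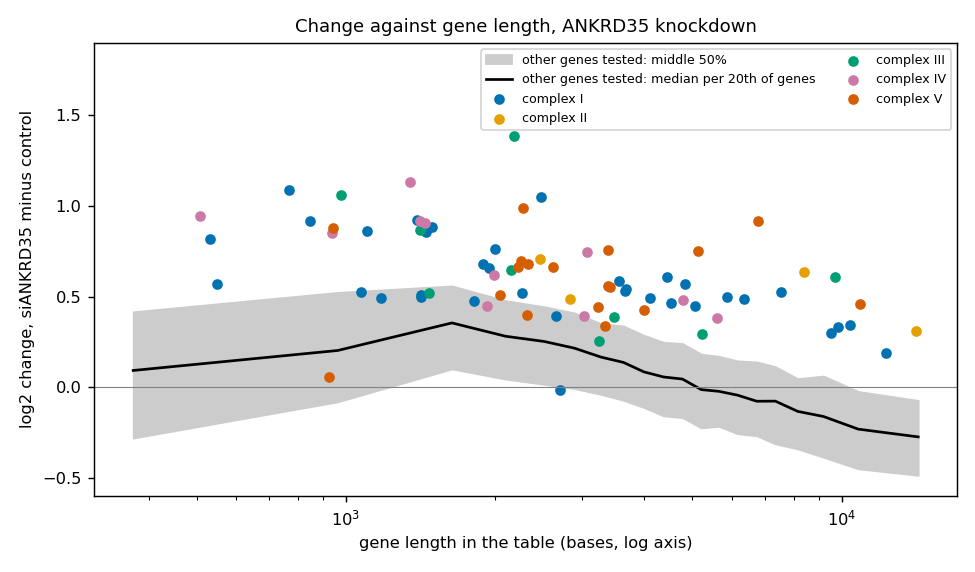
Change of each tested member in the ANKRD35 table (y axis, log2 difference of log2(FPKM + 1), siANKRD35 minus sicontrol_for_siANKRD35) against its listed length (x axis, log scale, bases), coloured by complex. The black line and grey band are the median and the middle 50% of all other tested genes in 20 bins of length; members lie mostly above the band across the range of lengths.

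The siANKRD35 libraries were not alike in the members. Replicate 2 was the lowest of its group in 34 and the highest in 31 of 77 members. Its deviation from the mean of the other siANKRD35 libraries had a Spearman correlation with GC content of -0.54 over members and -0.74 over other tested genes, against 0.37 and 0.50 over members for replicates 1 and 3. Without replicate 2, 71 members were called higher. With any 1 library left out, 47 to 71 members were called higher and 0 lower. COX6A1 lost its call without siANKRD35 replicate 3 or sicontrol_for_siANKRD35 replicate 2 or 3 (adjusted p from 0.0652 to 0.0757). SDHC lost it without siANKRD35 replicate 1 or any of the 3 control libraries (0.0548 to 0.112). UQCRC1 and ATP5IF1 lost it without siANKRD35 replicate 3 or any control library (0.0633 to 0.122 for UQCRC1 and 0.0752 to 0.105 for ATP5IF1). ATP5MC2 lost it without any library other than siANKRD35 replicate 2 (0.0525 to 0.0927), and UQCRFS1 without sicontrol_for_siANKRD35 replicate 1 or 2 (0.0525 to 0.0554). The log2 changes of these genes stayed positive in each case, between 0.23 for UQCRC1 and 1.13 for COX6A1. With no filter, which tests more genes, 15 calls ended. Among them were those of COX6A1 (adjusted p = 0.0749), SDHC (0.0544), ATP5MC2 (0.0663) and ATP5IF1 (0.109).

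Differences between shRBCK1 and shcontrol libraries were smaller and mostly upward. In shRBCK1 libraries 33 of 78 tested members were higher than in shcontrol libraries and 2 were lower, while 49.1% of all genes tested were called, 24.1% higher and 24.9% lower. The higher calls made up 42.3% of tested members and the lower calls 2.56%. The median change was 0.12, against 0.01 for all genes tested, and single members ranged from -0.40 to 0.76. The groups did not overlap in 33 members with shRBCK1 higher and in 3 with shRBCK1 lower, against 59.0% of all genes in either direction, 29.4% with shRBCK1 higher and 29.6% with shRBCK1 lower. Members took 0.680%, 0.740% and 0.706% of recovered reads in shRBCK1 libraries, against 0.638%, 0.622% and 0.617% in shcontrol libraries. Replicate 2 of shRBCK1 was the highest of its group in 56 of 78 members and replicate 1 the lowest in 48. Of the renal carcinoma line markers 3 of 9 were called higher and 5 lower in the same libraries, with a summed level of 763 to 789 FPKM in shRBCK1 libraries and 969 to 986 FPKM in shcontrol libraries. Blood cell markers summed to 3.88 to 5.07 FPKM in shRBCK1 libraries and 5.87 to 6.81 FPKM in shcontrol libraries, with 2 of 6 at 0 in all 6 libraries, and fibroblast markers to 2.15 to 2.79 FPKM in shRBCK1 libraries and 1.76 to 1.89 FPKM in shcontrol libraries, with 1 of 6 at 0. The part of these in the result was not tested.

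Complex III had the highest share of called members in shRBCK1 libraries, with 7 of 9 higher and a median change of 0.28; differences between complexes were not tested. UQCRQ, a small subunit of complex III, had 65.8, 80.7 and 74.6 FPKM in shRBCK1 libraries, against 62.1, 53.5 and 54.1 FPKM in shcontrol libraries, and rose by 0.37 ± 0.08 (SE, limma adjusted p = 0.00815). UQCRFS1 had 26.99, 28.9 and 26.7 FPKM in shRBCK1 libraries, against 21.99, 23.2 and 22.5 FPKM in shcontrol libraries, and rose by 0.28 ± 0.04 (adjusted p = 0.0012). In both genes the shRBCK1 libraries lay wholly above the controls. UQCRC1 had 58.8, 66.5 and 62.9 FPKM in shRBCK1 libraries, against 57.7, 56.2 and 54.5 FPKM in shcontrol libraries (log2 change 0.16, adjusted p = 0.0321), a narrower gap. In complex I, 13 of 35 members were higher and 1 lower, with a median change of 0.11. NDUFB1, an accessory subunit of the membrane arm (chr14:92116122-92121917, minus strand), had 6.75, 8.18 and 6.91 FPKM in shRBCK1 libraries, against 4.35, 3.72 and 3.63 FPKM in shcontrol libraries. This was the largest change among the 78 members, at 0.76 ± 0.08 (SE, limma adjusted p = 0.000308). NDUFS1 had 9.10, 9.36 and 9.09 FPKM in shRBCK1 libraries, against 7.70, 7.61 and 7.96 FPKM in shcontrol libraries, and rose by 0.22 (adjusted p = 0.00266). NDUFV1 had 18.3, 20.9 and 20.2 FPKM in shRBCK1 libraries, against 18.3, 16.6 and 17.4 FPKM in shcontrol libraries (log2 change 0.17, adjusted p = 0.0394), and the lowest shRBCK1 library was level with the highest shcontrol library. NDUFA9, an accessory subunit at the joint of the arms, was the 1 member of complex I called lower, with 1.57, 1.94 and 1.65 FPKM in shRBCK1 libraries, against 2.26, 2.62 and 2.50 FPKM in shcontrol libraries (log2 change -0.35 ± 0.08, adjusted p = 0.00815). NDUFA4 was not called, at 0.03 (adjusted p = 0.746).

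The subunits of complex II were called in part in shRBCK1 libraries. SDHA had 33.1, 33.7 and 34.4 FPKM in shRBCK1 libraries, against 28.5, 28.3 and 28.6 FPKM in shcontrol libraries. These groups were tight and apart, with a log2 change of 0.24 ± 0.03 (SE, limma adjusted p = 0.000574). SDHC had 7.10, 7.14 and 7.01 FPKM in shRBCK1 libraries, against 6.70, 6.16 and 5.91 FPKM in shcontrol libraries (log2 change 0.16, adjusted p = 0.0337). SDHB averaged 37.1 ± 2.54 FPKM in shRBCK1 libraries and 36.7 ± 2.13 FPKM in shcontrol libraries (SD, n = 3 each) and SDHD averaged 19.04 ± 0.294 FPKM in shRBCK1 libraries and 18.2 ± 1.31 FPKM in shcontrol libraries (SD, n = 3 each). Neither SDHB nor SDHD was called, and in both the groups overlapped. In complex IV, 3 of 11 members were higher and 1 lower, with a median change of 0.05. COX7C, a small subunit, rose by 0.21 ± 0.04 (SE, limma adjusted p = 0.00482), with 36.2, 35.97 and 33.1 FPKM in shRBCK1 libraries, against 30.6, 30.1 and 29.9 FPKM in shcontrol libraries. COX6A1 moved the other way, with 21.3, 22.4 and 21.8 FPKM in shRBCK1 libraries, against 24.4, 30.04 and 33.4 FPKM in shcontrol libraries and a log2 change of -0.40 ± 0.10 (adjusted p = 0.0137). All 3 shRBCK1 libraries of COX6A1 lay below the controls, which themselves ranged from 24.4 to 33.4 FPKM. Pseudogenes named for COX6A1 summed to 4.09 FPKM in shcontrol libraries. COX4I1 (-0.07, adjusted p = 0.363), COX5A (0.13, adjusted p = 0.133), COX6B1 (-0.11, adjusted p = 0.15) and COX7A2 (0.04, adjusted p = 0.497) were not called.

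In complex V, 8 of 19 tested members rose in shRBCK1 libraries and the others were not called, with a median change of 0.11. ATP5PF, coupling factor 6 of the stator stalk, had 31.7, 36.6 and 32.5 FPKM in shRBCK1 libraries, against 28.99, 26.7 and 23.3 FPKM in shcontrol libraries, and rose by 0.34 ± 0.08 (SE, limma adjusted p = 0.0122). ATP5IF1 had 27.9, 33.9 and 30.8 FPKM in shRBCK1 libraries, against 25.8, 23.9 and 24.3 FPKM in shcontrol libraries, and rose by 0.31 (adjusted p = 0.00801). Of the c subunit genes ATP5MC3 rose by 0.28 (adjusted p = 0.0013), while ATP5MC1 at 0.06 and ATP5MC2 at 0.04 were not called. The catalytic pair also differed in its calls. ATP5F1A had 29.7, 33.05 and 31.1 FPKM in shRBCK1 libraries, against 28.1, 28.3 and 27.4 FPKM in shcontrol libraries, a log2 change of 0.16 (adjusted p = 0.0209). ATP5F1B had 267, 278 and 268 FPKM in shRBCK1 libraries, against 276, 282 and 266 FPKM in shcontrol libraries, a log2 change of -0.02 (adjusted p = 0.67) with overlapping groups; with quantile normalization it was called higher, at 0.17 (adjusted p = 0.00254). Several of these calls ended when 1 library was left out, with log2 changes that stayed positive. SDHC lost its call without any 1 library other than shcontrol replicate 1 (log2 change 0.12 to 0.16, adjusted p from 0.069 to 0.103) and under length correction (0.11, adjusted p = 0.125). NDUFV1 (log2 change 0.13 to 0.17, adjusted p from 0.0878 to 0.125) and UQCRC1 (0.11 to 0.16, adjusted p from 0.0788 to 0.0967) lost theirs without replicate 2 or 3 of either group. ATP5F1A lost it without shRBCK1 replicate 3 or shcontrol replicate 1 or 3 (0.14 to 0.16, adjusted p from 0.0505 to 0.0661) and under length correction (0.12, adjusted p = 0.0938). With no filter 14 calls ended, among them those of ATP5PF (adjusted p = 0.0573), COX6A1 (0.0644), ATP5F1A (0.0583), SDHC (0.0782), UQCRC1 (0.0994) and NDUFV1 (0.114).

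Changes between siMITD1 and sicontrol_for_siMITD1 libraries went in both directions, near the share found among all genes. In siMITD1 libraries 15 of 56 tested members were higher than in sicontrol_for_siMITD1 libraries and 16 were lower, or 26.8% and 28.6%, while 65.6% of all genes tested were called, 30.0% higher and 35.6% lower. The median change was -0.03, as it was for all genes tested, and single members ranged from -0.46 to 0.51. The groups did not overlap in 16 members with siMITD1 higher and 18 with siMITD1 lower, against 70.4% of all genes in either direction, 32.5% with siMITD1 higher and 37.9% with siMITD1 lower. Of the 56 members 28 lay above the median of their like-length genes. Higher and lower calls occurred in each of the 4 complexes tested: 10 and 9 of 32 in complex I, 1 and 1 of 4 in complex II, 2 and 2 of 9 in complex III, and 2 and 4 of 11 in complex IV. Replicate 1 was the lowest library in 28 of 56 members among siMITD1 libraries and in 29 of 56 among controls. The summed level of blood cell markers was 2.68 to 3.55 FPKM in siMITD1 libraries and 9.21 to 10.1 FPKM in sicontrol_for_siMITD1 libraries, with 2 of 6 markers at 0 in all 6 libraries. The 5 endothelial markers listed in the MITD1 table summed to 5.07 to 6.51 FPKM in siMITD1 libraries and 9.92 to 10.2 FPKM in sicontrol_for_siMITD1 libraries. Renal carcinoma line markers summed to 1111 to 1127 FPKM in siMITD1 libraries and 1032 to 1053 FPKM in sicontrol_for_siMITD1 libraries. The part of these in the result was not tested.

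COX7A2L, a factor that joins complexes III and IV into supercomplexes (chr2:42333546-42425088, minus strand), showed the largest increase in siMITD1 libraries. It had 26.2, 25.7 and 26.5 FPKM in siMITD1 libraries, against 17.8, 18.3 and 18.1 FPKM in sicontrol_for_siMITD1 libraries. Both groups were tight, and COX7A2L rose by 0.51 ± 0.03 (SE, limma adjusted p = 2.4e-06). In complex I, NDUFS4, an accessory subunit of the NADH-oxidizing module, had 17.8, 19.97 and 20.1 FPKM in siMITD1 libraries, against 14.04, 13.3 and 13.2 FPKM in sicontrol_for_siMITD1 libraries, and rose by 0.48 ± 0.05 (adjusted p = 6.26e-05). NDUFC2, a membrane arm subunit, had 11.7, 13.2 and 13.8 FPKM in siMITD1 libraries, against 20, 16.1 and 18.1 FPKM in sicontrol_for_siMITD1 libraries, and fell by 0.46 on the log2 scale (adjusted p = 0.00113). NDUFS5, the most abundant member of the table, had 366, 386 and 375 FPKM in siMITD1 libraries, against 446, 469.7 and 449 FPKM in sicontrol_for_siMITD1 libraries, and its log2 change was -0.27 (adjusted p = 4.97e-05). None of these genes had overlapping groups. NDUFS1 at 0.01 (adjusted p = 0.834) and NDUFV1 at 0.06 (adjusted p = 0.216) were not called, and NDUFA4 rose by 0.14 (adjusted p = 0.00182).

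Complex II genes went in different directions in siMITD1 libraries. SDHB had 47.2, 47.1 and 48.9 FPKM in siMITD1 libraries, against 41.6, 40.7 and 43.5 FPKM in sicontrol_for_siMITD1 libraries, and rose by 0.18 ± 0.03 (SE, limma adjusted p = 0.00147). SDHD (chr11:112086773-112120013, plus strand) had 9.97, 11.1 and 12.2 FPKM in siMITD1 libraries, against 13.4, 15.5 and 15.1 FPKM in sicontrol_for_siMITD1 libraries, with a log2 change of -0.38 ± 0.07 (adjusted p = 0.00205). The iron-sulfur subunit was thus above its controls in all 3 libraries and the membrane anchor below them in all 3. SDHA at 0.04 (adjusted p = 0.575) and SDHC at 0.07 (adjusted p = 0.244) were not called, and their groups overlapped. In complex III, UQCRC2, a core protein, had 37.03, 36.2 and 36.99 FPKM in siMITD1 libraries, against 28.5, 29.8 and 30.9 FPKM in sicontrol_for_siMITD1 libraries, and rose by 0.30 ± 0.04 (adjusted p = 0.000112). UQCR11, a small subunit, had 8.93, 10.4 and 9.66 FPKM in siMITD1 libraries, against 13.1, 13.2 and 14.2 FPKM in sicontrol_for_siMITD1 libraries, with a log2 change of -0.44 ± 0.06 (adjusted p = 0.000184). UQCRFS1 rose by 0.09 (adjusted p = 0.0431), a call lost without any 1 library other than sicontrol_for_siMITD1 replicate 3 (adjusted p from 0.0578 to 0.147). UQCRC1 was not called, at -0.04 (adjusted p = 0.284), and was called higher, at 0.09 (adjusted p = 0.0189), with length and GC content corrected.

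In complex IV, COX5B, a subunit on the matrix side that binds zinc, had 70.7, 69.8 and 68.05 FPKM in siMITD1 libraries, against 89.9, 94.8 and 91.2 FPKM in sicontrol_for_siMITD1 libraries. The groups lay far apart, and this was the largest decrease of complex IV (-0.40 ± 0.03 on the log2 scale ± SE, limma adjusted p = 7.11e-06). COX4I1 had 73.4, 73.7 and 73.3 FPKM in siMITD1 libraries, against 79.5, 82.7 and 80.1 FPKM in sicontrol_for_siMITD1 libraries, a small and tight decrease of 0.14 on the log2 scale (adjusted p = 0.00176). COX6A1 changed by -0.17 (adjusted p = 0.0217) and COX6B1 by -0.26 (adjusted p = 0.0214). The COX6A1 call was lost without siMITD1 replicate 1 or sicontrol_for_siMITD1 replicate 1 or 2 (adjusted p from 0.0593 to 0.0639), and that of COX6B1 without siMITD1 replicate 1 or sicontrol_for_siMITD1 replicate 2 or 3 (0.0577 to 0.0701). The COX6A1 call also ended with quantile normalization (-0.13, adjusted p = 0.0629) and length correction (-0.11, adjusted p = 0.0832). With no filter 6 calls ended, among them those of COX6A1 (adjusted p = 0.0564), COX6B1 (0.0817) and UQCRFS1 (0.0589). COX5A at -0.12 (adjusted p = 0.259) and COX7A2 at 0.01 (adjusted p = 0.672) were not called.

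**Figure D4:**
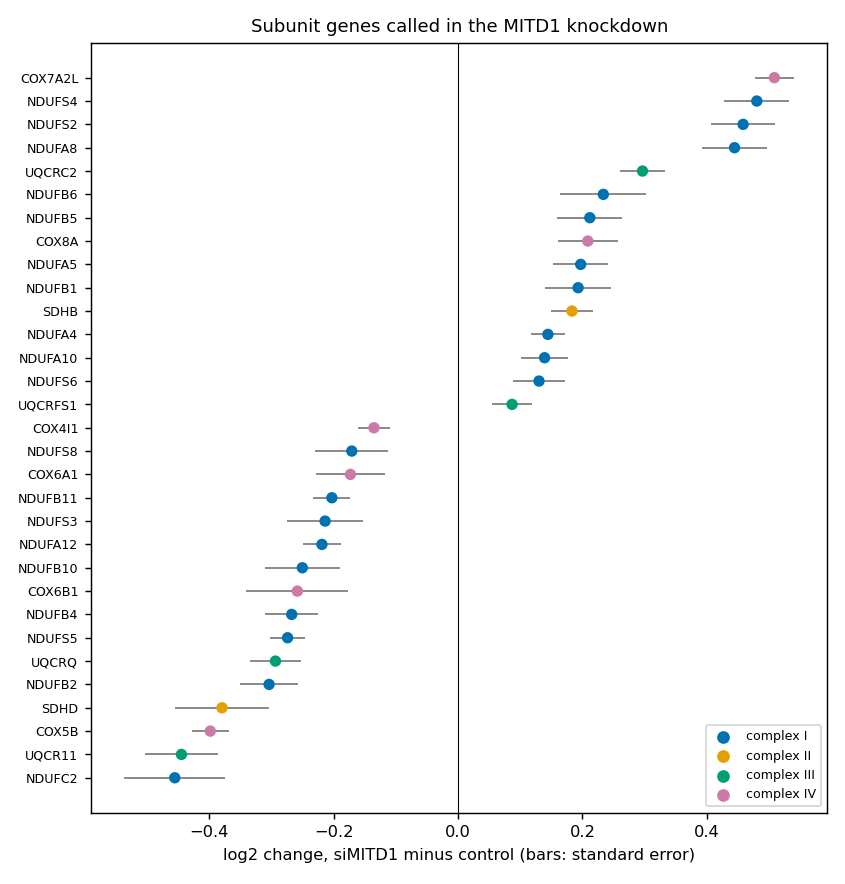
Log2 change (x axis, siMITD1 minus sicontrol_for_siMITD1 on log2(FPKM + 1), with standard errors as bars) of the 31 members called in the MITD1 table, coloured by complex. Increases and decreases both occur in complexes I to IV, from 0.51 for COX7A2L to -0.46 for NDUFC2.

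The calls of single members were set side by side across the comparisons, which share no libraries. In all, 29 members were higher in both shRBCK1 and siANKRD35 libraries, which is 29 of the 33 members called higher in shRBCK1 libraries and 29 of the 67 in siANKRD35 libraries. Of the 15 members called higher in siMITD1 libraries all 15 were also called higher in siANKRD35 libraries, and of the 16 called lower in siMITD1 libraries 15 were called higher in siANKRD35 libraries. The exception, COX6B1, was not called there. Of all tested members 87.0% were called higher in siANKRD35 and 42.3% in shRBCK1 libraries, against 19.4% and 24.1% of all genes. The overlaps lie near those member shares and are not read as agreement between knockdowns. In each knockdown 9 members were higher: COX7A2L, NDUFA5, NDUFA8, NDUFB1, NDUFB5, NDUFB6, NDUFS6, UQCRC2 and UQCRFS1. Only NDUFA8 of these kept its calls when a library was left out or the values were processed otherwise. The others each lost a call in at least 1 comparison. NDUFS6 lost it in all 3 with a library left out (limma adjusted p up to 0.145 in shRBCK1, 0.0625 in siANKRD35 and 0.0857 in siMITD1 libraries). COX6A1 was called in all 3 with opposite signs, at 1.13 in siANKRD35, -0.40 in shRBCK1 and -0.17 in siMITD1 libraries. SDHA was 0.64, 0.24 and 0.04 in the same order, and SDHD was 0.49, 0.07 and -0.38. The difference between knockdowns was not tested, since the tables were processed separately. Members with the NRF1 core in the promoter window were called higher in 13 of 13 cases in siANKRD35 libraries (median change 0.68), and those without it in 43 of 51 (median 0.54). For the ETS core the counts were 15 of 20 with it (median 0.68) and 41 of 44 without it (0.54), for the YY1 core 7 of 7 (0.50) and 49 of 57 (0.58), and for any core 25 of 30 (0.60) and 31 of 34 (0.56). In shRBCK1 libraries the medians were 0.11 with and 0.11 without the NRF1 core, 0.07 and 0.14 for the ETS core, and 0.02 and 0.13 for the YY1 core. In siMITD1 libraries they were -0.13 with and -0.0042 without the NRF1 core, -0.16 and 0.03 for the ETS core, and 0.10 and -0.05 for the YY1 core.

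Subunit genes of mitochondrial DNA did not share the pattern of the nuclear genes in siANKRD35 libraries; the difference between the genomes was not tested. Of 13 mitochondrially encoded subunit genes 1 was lower in siANKRD35 libraries and the others were not called, with a median change of -0.17. Among all genes tested, 19.4% were higher and 16.9% lower in those libraries. The lower gene was MT-ND5, a proton-pumping subunit of complex I, with 670.0, 955 and 769.5 FPKM in siANKRD35 libraries, against 1072, 1154 and 1111 FPKM in sicontrol_for_siANKRD35 libraries (log2 change -0.49 ± 0.13, limma adjusted p = 0.0241). In shRBCK1 libraries 10 of 13 were higher and the others were not called, with a median change of 0.21, while 24.1% of all genes tested were higher and 24.9% lower. MT-ND5 had 1166, 1081 and 1116 FPKM in shRBCK1 libraries, against 834, 844 and 833 FPKM in shcontrol libraries there, and rose by 0.42 ± 0.04 (adjusted p = 0.000113). Their summed level was 26580 to 27570 FPKM in shRBCK1 libraries and 22130 to 23980 FPKM in shcontrol libraries. In the ANKRD35 table it was 41050 to 55320 FPKM in siANKRD35 libraries and 50390 to 52510 FPKM in sicontrol_for_siANKRD35 libraries, so the groups overlapped. Mitochondrially encoded genes were not analysed in the MITD1 table.

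**Figure D5:**
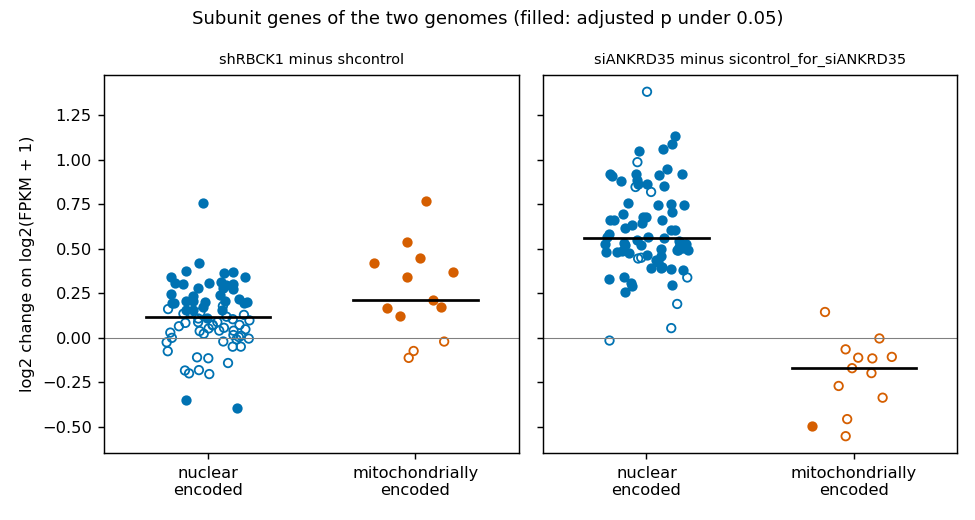
Log2 change (y axis, knockdown minus control on log2(FPKM + 1)) of nuclear-encoded members and of 13 mitochondrially encoded subunit genes (x axis) for shRBCK1 and siANKRD35, filled where the adjusted p was under 0.05; bars are medians. The medians are 0.12 and 0.21 in shRBCK1 libraries and 0.56 and -0.17 in siANKRD35 libraries.

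Genes that build the complexes or carry electrons between them were examined from lists of 48 assembly factors and 16 electron carrier and coenzyme Q synthesis genes. Of all genes tested, 19.4% were higher and 16.9% lower in siANKRD35 libraries, 24.1% and 24.9% in shRBCK1 libraries, and 30.0% and 35.6% in siMITD1 libraries. In siANKRD35 libraries 22 of 43 tested assembly factors were higher and the others were not called (median change 0.30). SDHAF1, which helps insert iron-sulfur clusters into SDHB, had 12.96, 10.9 and 11.8 FPKM in siANKRD35 libraries, against 7.02, 6.05 and 7.01 FPKM in sicontrol_for_siANKRD35 libraries, and rose by 0.74 (limma adjusted p = 0.00216). Of the carrier and coenzyme Q genes 9 of 15 were higher and the others were not called (median 0.33), led by ETFA, a subunit of the electron transfer flavoprotein, at 0.76 (adjusted p = 0.00172). In shRBCK1 libraries 17 of 45 assembly factors were higher and 7 lower (median 0.08). NDUFAF8, an assembly factor of complex I, had 23.2, 26.1 and 24.8 FPKM in shRBCK1 libraries, against 16.9, 17.03 and 16.4 FPKM in shcontrol libraries, and rose by 0.53 (adjusted p = 0.000101). SDHAF2, which attaches flavin to SDHA, had 4.35, 4.30 and 3.96 FPKM in shRBCK1 libraries, against 6.001, 6.03 and 5.43 FPKM in shcontrol libraries, with a log2 change of -0.39 (adjusted p = 0.00112). CYCS, cytochrome c, which carries electrons from complex III to complex IV, led the 5 of 16 carrier genes that were higher there, with 62.6, 67.1 and 62.6 FPKM in shRBCK1 libraries, against 49.8, 47.7 and 50 FPKM in shcontrol libraries (log2 change 0.38, adjusted p = 0.000219), and the median was 0.10. In siMITD1 libraries 12 of 42 assembly factors were higher and 17 lower (median -0.08). COX17, the copper chaperone of complex IV, had 22.2, 24.4 and 25.7 FPKM in siMITD1 libraries, against 15.8, 13.8 and 13.96 FPKM in sicontrol_for_siMITD1 libraries, and rose by 0.69 (adjusted p = 2.5e-05), while NDUFAF3, an assembly factor of complex I, had 28.8, 29.5 and 27.96 FPKM in siMITD1 libraries, against 41.1, 41.8 and 39.5 FPKM in sicontrol_for_siMITD1 libraries, with a log2 change of -0.49 (adjusted p = 4.95e-06). Of the carrier genes 8 of 15 were higher and 1 lower (median 0.26). PDSS2, which makes the side chain of coenzyme Q, rose by 0.71 (adjusted p = 3.24e-06), and CYC1, the cytochrome c1 subunit of complex III that the symbol rule leaves out, changed by -0.23 (adjusted p = 0.000644).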

How the data were processed

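RNA of 786-O cells was made into libraries with a directional kit, per the labels' protocols, and the authors deposited FPKM values in 3 tables, 1 per knockdown. The submitters' processing notes name mm10, a mouse build. Gene starts and ends of the RBCK1 table equalled those of human GENCODE 29 for 58724 of 58735 genes. Those of the ANKRD35 table were not compared. Aligner, counting tool and counting strand are not given in the sources used here. Of the value columns of the ANKRD35 table, 6 name no sample and were not used. Values were used as log2(FPKM + 1). Genes with an FPKM of at least 1 in at least 3 of 6 libraries were tested per table with limma-trend (limma 3.58.1, R 4.3.3), two-sided, without a replicate block, with Benjamini-Hochberg adjustment over all genes tested, called under 0.05. Reads were recovered as FPKM times length over each library's step, whole within 0.01 for 100.0% of values in the RBCK1 and ANKRD35 tables and for 91.9% to 92.1% in the MITD1 table, whose lengths came from the RBCK1 table by symbol. The main fit was also run on simulated reads with known changes for the RBCK1 and ANKRD35 tables, not for the MITD1 table. The simulated reads had no trend with length or GC content, so that run cannot show how such trends affect the calls. GC content and exon overlap came from GENCODE 29. Genes were named by rule: the targeted genes, the largest called increase and decrease per complex and comparison, core subunits and isoform pairs, the 5 highest and 3 lowest members, and per gene list the called gene with the smallest adjusted p in each direction; 1 result that this rule names is not reported here. ATP5MF, ATP5PO, NDUFA6, NDUFA7, NDUFV2, COX7B2, COX8C and the pseudogene sums were singled out after their values were seen. Members and lists were chosen with earlier results of these data known. Replicate numbers were checked for pairing and did not pair the libraries. Alternatives were another pseudocount, no filter, quantile normalization, length and GC corrections, voom on recovered reads, a replicate block, leaving out each library, and, added after seeing the data, members without exon overlap.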

Additional observations from a re-analysis of the deposited data

How the results depend on the processing

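In siANKRD35 libraries 0 members were lower under each alternative run, and the higher calls stayed within 1.5 times the 67 reported except among members without exon overlap, which left fewer genes to count (38 of 42). The members' median there was 0.45 with quantile normalization, 0.44 with length correction, 0.47 with length and GC correction, 0.44 with the replicate block and length correction, and 0.51 with voom. For shRBCK1, 20 members were higher and 1 lower with no filter, which tests more genes, against 33 and 2 reported; 4 were lower with length correction, with length and GC correction and with the replicate block and length correction; the median was 0.18 with voom; and 20 were higher and 0 lower among members without exon overlap. ATP5F1B in shRBCK1 libraries changed by 0.17 in place of -0.02 with quantile normalization, and UQCRC1 in siMITD1 libraries by 0.0872 in place of -0.04 with length and GC correction; the cause was not tested. For siMITD1 the median was 0.0218 with length correction, alone or with the replicate block, 0.0240 among members without exon overlap (8 lower there), and 0.0108 without siMITD1 replicate 1. Leaving out 1 library gave 23 to 35 higher, 2 to 3 lower and medians of 0.09 to 0.15 for shRBCK1, 47 to 71 higher, 0 lower and 0.54 to 0.59 for siANKRD35, and 12 to 17 higher, 14 to 15 lower and medians of -0.0531 to 0.0108 for siMITD1. Same-numbered libraries had correlations of deviations between -0.09 and 0.18, so the numbers were not taken as pairs; with a replicate block 26 members were higher and 3 lower for shRBCK1, 65 and 0 for siANKRD35, and 17 and 18 for siMITD1. With limma and that block the calls of SDHC (adjusted p = 0.0506), UQCRC2 (0.0535), UQCRC1 (0.0545), NDUFA9 (0.0607), NDUFA5 (0.0638) and NDUFC2 (0.0717) ended in siANKRD35 libraries, and those of SDHC (0.0562), UQCRC1 (0.0581), NDUFB4 (0.0606), NDUFB6 (0.0697), NDUFA13 (0.0834), NDUFV1 (0.0861) and NDUFS6 (0.0943) in shRBCK1 libraries. Voom was not run for siMITD1, where reads were recovered only in part. Reads limit the lowest members, down to 28 reads for NDUFA13.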

Other observations

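Genes that feed the respiratory chain and the mitochondrion were read from 3 further lists, beside 19.4% higher and 16.9% lower among all genes tested in siANKRD35 libraries, 24.1% and 24.9% in shRBCK1 libraries, and 30.0% and 35.6% in siMITD1 libraries. In siANKRD35 libraries 12 of 16 genes of the tricarboxylic acid cycle and pyruvate dehydrogenase were higher and 1 was lower (median change 0.39). PDHB, a subunit of pyruvate dehydrogenase, rose by 0.62 (limma adjusted p = 0.00199), while OGDH, a subunit of 2-oxoglutarate dehydrogenase, had 15.9, 12.1 and 13.96 FPKM in siANKRD35 libraries, against 19.01, 18.6 and 18.8 FPKM in sicontrol_for_siANKRD35 libraries (log2 change -0.41, adjusted p = 0.0199). Of 19 import and outer membrane genes 10 were higher and 1 lower (median 0.36); TOMM22, a receptor of the import pore, rose by 0.66 (adjusted p = 0.00124), and MFN2, a fusion protein, changed by -0.30 (adjusted p = 0.0167). Of 14 tested biogenesis regulators 3 were higher and 2 lower (median 0.11). POLG2, the accessory subunit of the mitochondrial DNA polymerase, rose by 0.58 (adjusted p = 0.00281), and PPRC1, a coactivator of the PGC-1 family, changed by -0.38 (adjusted p = 0.00826).

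In shRBCK1 libraries 2 of 16 tricarboxylic acid cycle genes were higher and 2 lower (median 0.01), with DLD at 0.20 (adjusted p = 0.00387) and DLST at -0.20 (adjusted p = 0.00283). PPRC1 had 15.4, 15.2 and 15.7 FPKM in shRBCK1 libraries, against 22.1, 21.8 and 21.6 FPKM in shcontrol libraries (log2 change -0.47, adjusted p = 2.62e-05), and TFAM, which packs and transcribes mitochondrial DNA, rose by 0.18 (adjusted p = 0.00979); in all 2 of 15 biogenesis regulators were higher and 5 lower (median -0.08). Of 19 import genes 9 were higher and 3 lower (median 0.03), with HSPE1, the small subunit of the mitochondrial chaperonin, at 0.39 (adjusted p = 0.000465) and VDAC2, an outer membrane channel, at -0.17 (adjusted p = 0.00431). In siMITD1 libraries 5 of 16 cycle genes were higher and 7 lower (median -0.07). DLST, the succinyl transferase of 2-oxoglutarate dehydrogenase, had 16.4, 17.1 and 17.4 FPKM in siMITD1 libraries, against 33.2, 33.2 and 33.1 FPKM in sicontrol_for_siMITD1 libraries (log2 change -0.93, adjusted p = 1.51e-07). Of 14 biogenesis regulators 2 were higher and 7 lower (median -0.11), with POLRMT, the mitochondrial RNA polymerase, at -0.60 (adjusted p = 9.46e-07) and POLG, the catalytic subunit of the DNA polymerase, at 0.23 (adjusted p = 0.000876). Of 19 import genes 8 were higher and 8 lower (median -0.04), with TOMM22 at 0.61 (adjusted p = 3.26e-06) and MFN2 at -0.47 (adjusted p = 3.85e-06).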
